A study of Sus scrofa with 20 samples.

Results

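Integrin and laminin subunits are the genes described here. They were chosen by name from a table of read counts, as every gene whose pig Ensembl symbol was ITGA with any suffix, ITGB with 1 digit, or LAMA, LAMB or LAMC with 1 digit. This gave 34 of the 31907 genes in the table, namely 15 integrin alpha chains, 8 integrin beta chains and 11 laminin chains. LAMA2, ITGAX, ITGA2B and ITGAD were not matched to a row of the table and are not analysed here. The study compared backfat with liver in Nanchukmacdon, a Korean pig breed, by RNA sequencing and whole-genome bisulfite sequencing. Backfat and liver came from 5 boars, which the labels give as normal and aged 22 months (the methods of the study give another age), with no treatment and no genetic modification in either tissue. The RNA libraries, 5 of backfat and 5 of liver, are named here by tissue and by the number in the columns of the count table. These numbers, 65, 67, 69, 71 and 72, occur in both tissues and are taken as the boars, which no label states. The whole-genome bisulfite files hold no genome positions and were not used. Pieces of whole tissue were sequenced, so that fewer cells of a type and less RNA per cell cannot be told apart.

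Integrins are receptors of the cell surface. Each is a pair of 1 alpha and 1 beta chain, and the pair decides whether the receptor holds laminin, collagen, fibronectin or another cell. Laminins are secreted as a trimer of 1 alpha, 1 beta and 1 gamma chain, and these trimers form the first sheet of the basement membrane. Every fat cell is wrapped in such a membrane, whereas hepatocytes face blood sinusoids that lack a continuous one, and in liver the membrane lies mainly around bile ducts and larger vessels.

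The promoters of LAMA4, ITGA7 and LAMC1, which were higher in backfat, and of ITGA9 and LAMA5, which were higher in liver, are shown, since these genes moved apart by tissue while their starts differed widely in CpG content, the context in which DNA methylation was studied. Each window runs from 250 bases before to 50 bases after the RefSeq gene start on Sscrofa11.1. It is written 5′ to 3′ on the strand of the gene, and capitals mark CpG dinucleotides. The start is the outer 5′ end of the annotated gene, and whether transcription begins there in either tissue was not tested. LAMA4 lay at chr1:78224515-78224814 on the minus strand, ITGA7 at chr5:21150826-21151125 on the minus strand, LAMC1 at chr9:124283418-124283717 on the plus strand, ITGA9 at chr13:22298247-22298546 on the plus strand and LAMA5 at chr17:61747746-61748045 on the minus strand.
LAMA4: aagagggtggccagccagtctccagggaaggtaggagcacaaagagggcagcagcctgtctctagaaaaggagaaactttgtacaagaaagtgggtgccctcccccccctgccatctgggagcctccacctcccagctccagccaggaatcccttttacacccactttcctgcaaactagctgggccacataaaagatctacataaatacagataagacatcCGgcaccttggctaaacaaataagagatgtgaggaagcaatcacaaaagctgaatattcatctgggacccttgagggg
ITGA7: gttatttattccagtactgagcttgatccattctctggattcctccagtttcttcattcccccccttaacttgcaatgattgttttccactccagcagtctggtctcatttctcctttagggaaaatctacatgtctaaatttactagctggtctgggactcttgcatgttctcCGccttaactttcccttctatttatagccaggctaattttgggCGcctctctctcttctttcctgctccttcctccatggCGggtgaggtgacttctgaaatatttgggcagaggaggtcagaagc
LAMC1: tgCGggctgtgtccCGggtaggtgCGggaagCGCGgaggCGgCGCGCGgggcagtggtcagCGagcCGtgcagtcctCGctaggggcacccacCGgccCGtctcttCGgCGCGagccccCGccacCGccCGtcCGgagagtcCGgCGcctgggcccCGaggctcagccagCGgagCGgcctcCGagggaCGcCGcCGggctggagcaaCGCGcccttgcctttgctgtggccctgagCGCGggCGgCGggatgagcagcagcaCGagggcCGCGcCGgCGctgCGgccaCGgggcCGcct
ITGA9: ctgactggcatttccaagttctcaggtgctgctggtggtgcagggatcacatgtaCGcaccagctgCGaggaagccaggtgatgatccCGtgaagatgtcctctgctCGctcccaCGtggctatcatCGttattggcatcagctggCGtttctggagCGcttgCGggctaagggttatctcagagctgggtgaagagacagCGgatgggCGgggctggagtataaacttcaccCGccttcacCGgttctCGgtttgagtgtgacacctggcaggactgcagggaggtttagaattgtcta
LAMA5: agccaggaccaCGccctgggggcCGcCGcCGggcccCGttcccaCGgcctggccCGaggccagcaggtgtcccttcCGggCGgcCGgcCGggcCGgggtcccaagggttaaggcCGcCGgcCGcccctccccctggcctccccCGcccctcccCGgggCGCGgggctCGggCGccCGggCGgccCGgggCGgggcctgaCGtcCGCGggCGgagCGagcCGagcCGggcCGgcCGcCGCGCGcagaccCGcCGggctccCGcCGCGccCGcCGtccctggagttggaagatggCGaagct

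The LAMA4 window held 1 CpG and the ITGA7 window 3, against 44 in LAMC1, 14 in ITGA9 and 45 in LAMA5. The median was 18 CpG over the 34 members and 16 over the 19556 promoters of the annotation. Among the 5 shown, the members higher in backfat ranged from 1 to 44 CpG and those higher in liver held 14 and 45. Of the other backfat DEGs, LAMB1 held 26, LAMB2 9 and LAMC3 34 CpG. On either strand, GGGCGG was found in 20 of the 34 windows and in 50.6% of all promoters, TATAAA in 4 of the 34 and 10.9% of all, and CCAAT in 7 of the 34 and 35.4% of all. GGGCGG holds a CpG itself, so that its matches are tied to the CpG counts, and a match is a description of the window.

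Before the results, the libraries were examined. They held 43820042 to 61772737 assigned counts each, of which the members took 0.367 to 0.514% in backfat and 0.0678 to 0.122% in liver. Fat cell markers summed to 9099 to 11960 CPM (read counts scaled to library depth) in backfat and 8.05 to 11.12 CPM in liver, and hepatocyte markers to 169 to 544 CPM in backfat and 22490 to 89830 CPM in liver, so the tissue labels held, with all 5 markers of each list detected in both tissues. Liver 67 and backfat 69 stood apart. Mitochondrially encoded genes made up 44.5% of the counts in liver 67, against 6.38 to 20.2% in the others, and skeletal muscle markers summed to 163.9 CPM in it against 1.10 to 2.50 CPM in the other livers. Backfat 69 had the highest hepatocyte marker sum of the backfat libraries. Member calls that were lost or gained without liver 67 or without backfat 69 and liver 67 together are given with the genes.

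Of the 34 members, 32 passed the filter on low counts. Levels are CPM scaled by trimmed mean of M-values (TMM), given as mean ± SD (n = 5), and fold changes are log2 of backfat over liver from edgeR's quasi-likelihood test. The false discovery rate (FDR) is the Benjamini-Hochberg adjusted p over all 16275 genes tested. Genes with an FDR up to 0.05 passed, and those whose log2 fold change was also 2 or more in size were called differentially expressed genes (DEGs). These thresholds follow the methods of the study.

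In backfat 14 members were higher, which is 43.8% of those tested, where 28.0% of all genes were. In liver 3 members were higher, 9.38% of those tested, where 27.0% of all genes were, and 15 members did not pass. Backfat DEGs were 7 members (21.9%, with 11.1% of all genes), among them ITGA7, LAMA4, LAMB1, LAMB2, LAMC1 and LAMC3. The only liver DEG among the members was ITGA9 (3.12%, with 11.2% of all genes). All backfat libraries lay above all liver libraries in CPM for 12 members (37.5%, with 22.9% of all genes) and the reverse held for 2 members (6.25%, with 19.7% of all genes). The median log2 fold change was 0.43 over the members and 0.00014 over all genes tested. Counted apart, 7 of the 10 tested laminins were higher in backfat (70.0%), 2 in liver and 1 did not pass, with a median of 2.69. Of the 22 tested integrins, 7 were higher in backfat (31.8%), 1 in liver and 14 did not pass, with a median of 0.25. The integrin share in backfat was thus near the 28.0% of all genes, and the laminin share lay above it. Among the integrins, ITGA7 was the only backfat DEG (4.55%, with 11.1% of all genes), and the other backfat DEGs were laminins. Whether laminins and integrins differed as lists was not tested.

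**Figure D1:**
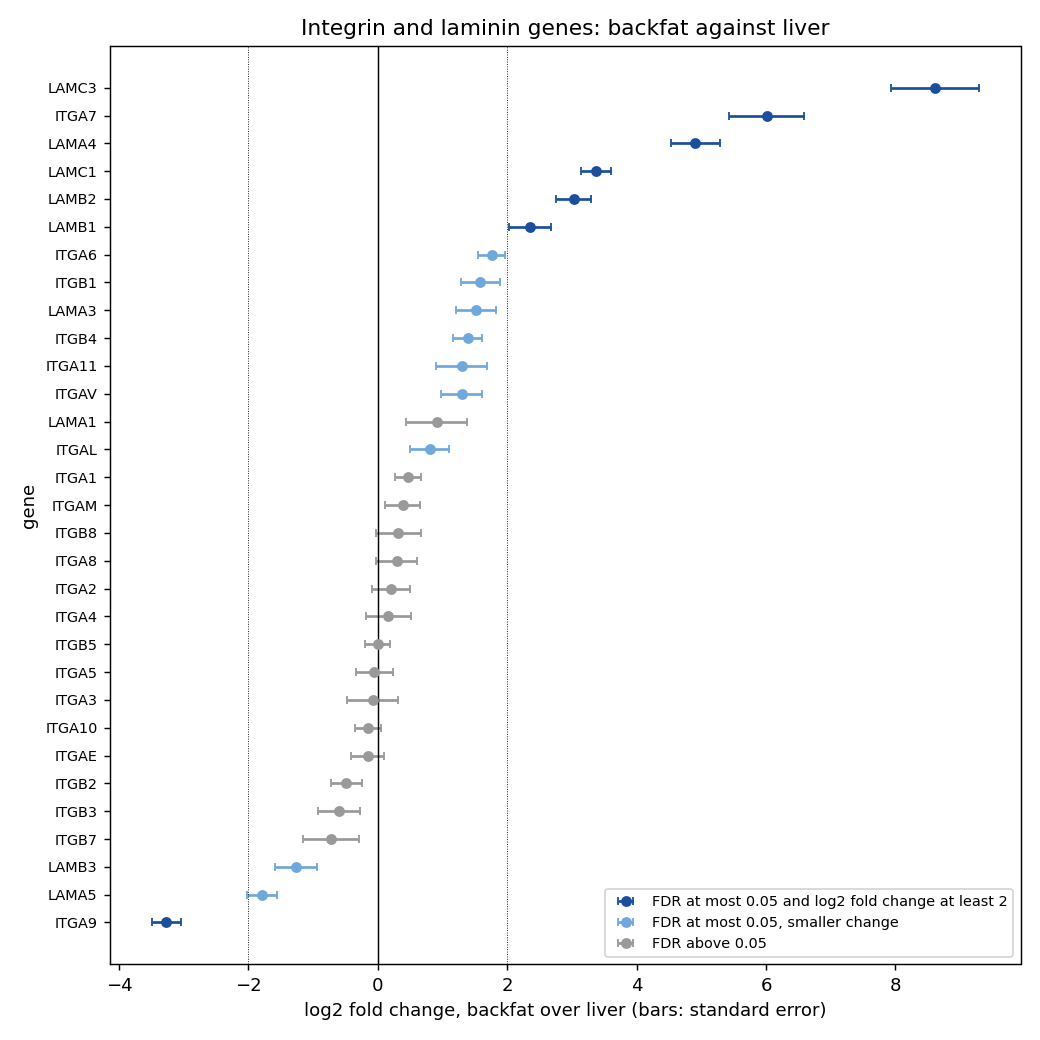
Log2 fold change of backfat over liver (x axis, bars are standard errors) for 31 of the 32 tested integrin and laminin genes (y axis), coloured by whether they passed the FDR and the fold threshold, which the dotted lines mark. LAMC3 is at the top with 8.62, a fitted value that rests on 3 liver counts, ITGA7 follows with 6.01, and ITGA9 is at the bottom with -3.27.

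Laminin alpha chains decide which integrin a laminin trimer binds. LAMA4, the alpha chain of vessel and fat cell basement membranes, was 30.0-fold higher in backfat, and LAMA5, the broad alpha chain of mature epithelial and vessel membranes, was 3.47-fold higher in liver. LAMA4 (ENSSSCG00000004425, chromosome 1, 78071990 to 78224564, minus strand) was at 442, 428, 509, 386.5 and 385.8 CPM in backfat 65, 67, 69, 71 and 72, and at 7.78, 20.8, 6.84, 23.4 and 13.1 CPM in the livers of the same boars in that order. The groups were far apart, and liver 67 and liver 71 were the highest livers. Its mean was 430 ± 50.6 CPM in backfat and 14.4 ± 7.48 CPM in liver, with a log2 fold change of 4.91 (SE 0.38, FDR = 3.963e-07).

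LAMA5 (ENSSSCG00000032761, chromosome 17, 61698370 to 61747795, minus strand) was at 73.3, 108.5, 113.5, 73.5 and 72.5 CPM in the backfat libraries in the same order of boars, and at 372, 350.5, 315, 202 and 291 CPM in the livers. Liver 71 was the lowest liver and still lay above every backfat library. The difference was -1.79 on the log2 scale (SE 0.23, FDR = 2.897e-05). LAMA3, the alpha chain of the epithelial laminin that anchors cells to hemidesmosomes, was at 28.2, 28.5, 40.2, 35.9 and 44.4 CPM in backfat and at 6.56, 19.8, 6.54, 12.6 and 16.1 CPM in liver, with a log2 fold change of 1.52 (SE 0.31, FDR = 0.00113) and no overlap. LAMA1, an alpha chain known from embryonic membranes, was low in both tissues. It was at 1.48, 0.854, 3.79, 1.91 and 2.47 CPM in backfat and 0.524, 2.19, 0.722, 1.01 and 1.14 CPM in liver, and its log2 fold change of 0.91 had an FDR of 0.118, or 1.26 with an FDR of 0.0268 without liver 67.

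Levels of different genes can be compared only per length, so CPM were divided by the exonic length of each gene in kb. On that scale LAMA4 made up 85.4 ± 1.54% of the summed level of the 4 laminin alpha chains in backfat and 7.67 ± 5.06% in liver. For LAMA5 the share was 10.03 ± 1.56% in backfat and 88.1 ± 6.65% in liver. The ratio of LAMA4 to LAMA5 per kb was 6.84 to 10.5 in the backfat libraries and 0.0363 to 0.201 in the livers. This ratio is taken within a library and does not depend on the scaling between libraries. LAMA2 would add to the total of this class and is not in it.

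Laminin beta chains were mixed. LAMB1, the common beta chain, was at 420, 472, 212, 221 and 194 CPM in the 5 backfat libraries and at 59.5, 32.3, 68.8, 70.2 and 67.98 CPM in liver. Backfat 65 and 67 were higher than the other three, which gave the gene its wide spread of 303.7 ± 131.5 CPM, and all of them lay above the livers. Its log2 fold change was 2.35 (SE 0.32, FDR = 5.281e-05), the smallest among the backfat DEGs. LAMB2, the beta chain of vessel, nerve and muscle membranes, was at 393, 374, 264, 361 and 379.6 CPM in backfat and at 42.2, 74.3, 33.3, 34.1 and 33.1 CPM in liver. Backfat 69 was the lowest backfat and liver 67 the highest liver for LAMB2, and the log2 fold change was 3.03 (SE 0.27, FDR = 1.345e-06).

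LAMB3, the beta partner of LAMA3 in the epithelial laminin, went the other way, higher in liver while LAMA3 was higher in backfat. Its levels were 4.87, 7.16, 8.04, 5.14 and 5.10 CPM in backfat and 12.5, 6.48, 10.3, 24.0 and 19.2 CPM in liver, a log2 fold change of -1.26 (SE 0.33, FDR = 0.00557). Liver 67 lay within the backfat range. When libraries were scaled by their size only, without TMM, LAMB3 had a log2 fold change of -0.51 with an FDR of 0.165. Bile duct markers, with 4 of 5 in the table, summed to 34.6 to 72.6 CPM in liver and 0.496 to 2.57 CPM in backfat and were all higher in liver. Their part in the LAMB3 difference was not tested. Per kb, LAMB1 held 41.1 ± 8.93% of the beta chain level in backfat and 45.0 ± 11.6% in liver, LAMB2 held 57.5 ± 8.84% and 37.7 ± 16.6%, and LAMB3 held 1.45 ± 0.596% and 17.3 ± 7.21%. The LAMB1 and LAMB2 shares of the tissues differed by less than the summed SDs. Liver 67 set much of that spread, with a LAMB2 to LAMB1 ratio per kb of 2.62, against 0.550 to 0.806 in the other livers and 0.900 to 2.22 in backfat. LAMB4 had at most 4 counts in any library and was not tested.

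Among the laminin gamma chains, LAMC1 and LAMC3 were backfat DEGs. LAMC1 (ENSSSCG00000015555, chromosome 9, 124283668 to 124405967, plus strand), the gamma chain of most laminins, was at 600.3, 576, 596, 431.5 and 371 CPM in backfat and at 44.9, 45.7, 43.7, 62.6 and 51.6 CPM in liver. The highest liver, liver 71, was far below the lowest backfat, backfat 72. The means were 515 ± 107 and 49.7 ± 7.79 CPM, and the log2 fold change was 3.37 (SE 0.23, FDR = 1.265e-07).

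LAMC3, a gamma chain found in nerve and some vessel membranes, was at 7.48, 4.88, 9.67, 7.14 and 6.26 CPM in backfat. In liver it had 0 counts in 4 libraries and 3 counts in liver 67, against 2319 counts in backfat together. The ratio of backfat to liver was 455, with a 95% interval from 155.5 to 2208 that covers counting error only.

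**Figure D2:**
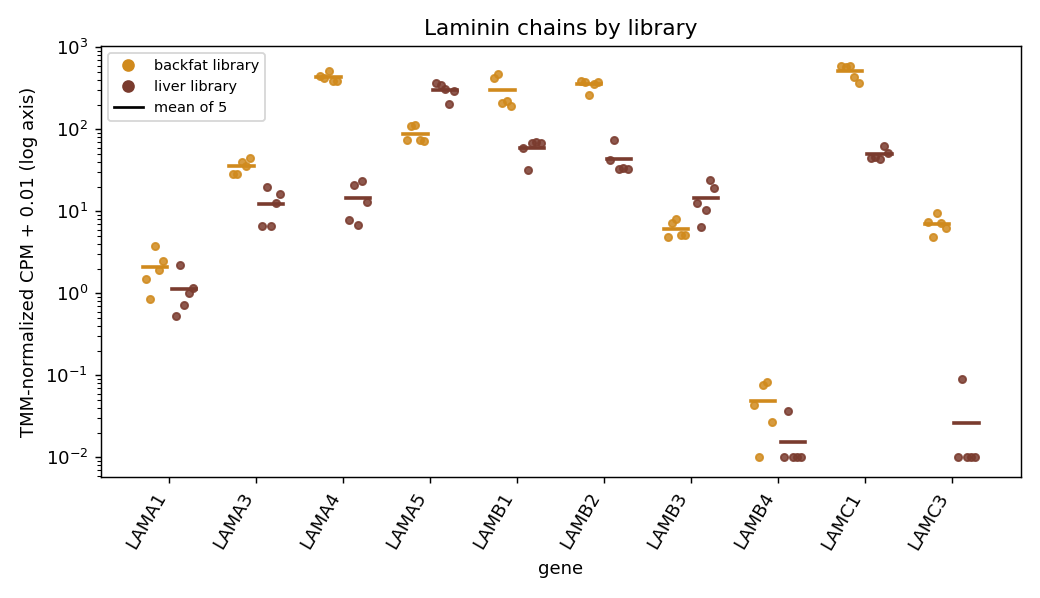
TMM-normalized CPM plus 0.01 (y axis, log scale) of 10 laminin chains (x axis) in each of 5 backfat and 5 liver libraries, with lines at the mean of 5. Backfat points lie above all liver points for LAMA3, LAMA4, LAMB1, LAMB2, LAMC1 and LAMC3, the order is turned for LAMA5, and LAMB3 has 1 liver point within the backfat range.

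The summed levels of laminin alpha and beta chains were lower in liver. Alpha chains without LAMA2 summed to 76.3 ± 9.11 CPM per kb in backfat and 30.1 ± 5.26 in liver, and beta chains to 99.8 ± 23.2 and 18.5 ± 1.37. LAMC1 was at 53.6 ± 11.1 CPM per kb in backfat and 5.17 ± 0.811 in liver. A laminin trimer takes 1 chain of each class. In backfat the LAMA5 level per kb was 0.102 to 0.164 of that of LAMC1, while in liver it was 2.71 to 6.95 times that of LAMC1. LAMA5 was the member with the highest level per kb in liver (26.7 ± 5.76 CPM per kb), but ITGA5 (25.0 ± 6.15) and ITGB5 (25.0 ± 2.41) did not differ from it beyond their spread. When the longest RefSeq transcript was taken as the length, ITGA5 came first in liver with 34.3 CPM per kb and LAMA5 second with 26.7.

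Among the integrins, ITGA7 had the largest log2 fold change. ITGA7, the laminin receptor chain of muscle, was also the member with the highest level per kb in backfat (194 ± 29.1 CPM per kb), and its CPM was 64.3-fold above that of liver. ITGA7 (ENSSSCG00000036237, chromosome 5, 21126565 to 21150875, minus strand) was at 769.7, 650.1, 695.6, 947 and 832.5 CPM in backfat and at 4.99, 31.7, 4.735, 10.3 and 8.90 CPM in liver. The means were 779 ± 117 and 12.1 ± 11.2 CPM with a log2 fold change of 6.01 (SE 0.57, FDR = 2.379e-06). Liver 67 was the highest liver, and without it the log2 fold change was 6.72 (105-fold, FDR = 4.479e-08).

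Since ITGA7 is known from muscle, muscle markers were set beside it. Skeletal muscle markers, with 4 of 8 in the table and none of the 4 passing the test, summed to 406, 108, 154, 25.8 and 10.2 CPM in backfat 65, 67, 69, 71 and 72. The backfat libraries with the lowest sums, 71 and 72, had the highest ITGA7. Backfat 65, with the highest sum, had ITGA7 at 769.7 CPM, above backfat 67 (650.1 CPM) and backfat 69 (695.6 CPM). In liver 67 both ITGA7 and the muscle sum (163.9 CPM) were above the other livers. The part of skeletal muscle in the ITGA7 values was not tested. Smooth muscle markers summed to 389 to 646 CPM in backfat and 227 to 461 CPM in liver, with 4 of 6 higher in backfat and 1 in liver, and their part in the ITGA7 difference was not tested.

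ITGA6, the laminin receptor chain of epithelia and vessels, was at 68.5, 45.9, 77.3, 59.5 and 55.0 CPM in backfat and 19.0, 11.9, 23.5, 16.97 and 19.1 CPM in liver. It did not overlap between tissues, with a log2 fold change of 1.76 (SE 0.20, FDR = 1.257e-05). ITGA3, the third laminin receptor chain, was at 2.82, 3.43, 6.325, 3.42 and 3.28 CPM in backfat and 1.97, 7.75, 2.25, 5.40 and 3.01 CPM in liver, and did not pass (log2 fold change -0.08, FDR = 0.879). Endothelial markers, all 5 of those in the table higher in backfat, summed to 773 to 1299 CPM in backfat and 151.5 to 233.5 CPM in liver. Their part in the ITGA6, LAMA4 and LAMC1 differences was not tested.

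ITGB4, which pairs only with ITGA6 and joins it to hemidesmosomes, was at 30.3, 29.0, 45.65, 29.9 and 29.1 CPM in backfat and 11.7, 18.9, 12.9, 9.38 and 9.49 CPM in liver (log2 fold change 1.39, SE 0.22, FDR = 1.918e-04). Backfat 69 was well above the other backfats, and the livers lay below all of them. ITGB1, the beta chain shared by the laminin, collagen and several fibronectin receptors, was at 253, 282, 219.7, 223 and 208.9 CPM in backfat and 114, 57.6, 125, 41.4 and 58.0 CPM in liver (log2 fold change 1.58, SE 0.30, FDR = 6.604e-04). Liver 65 and 69 were above the other livers and still below all backfats. ITGB1 is the known partner of ITGA7. Per kb the ITGA7 level was 4.37 to 8.05 times that of ITGB1 in backfat, while in liver it was 0.0717 to 0.470 times in 4 libraries and 1.04 times in liver 67.

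**Figure D3:**
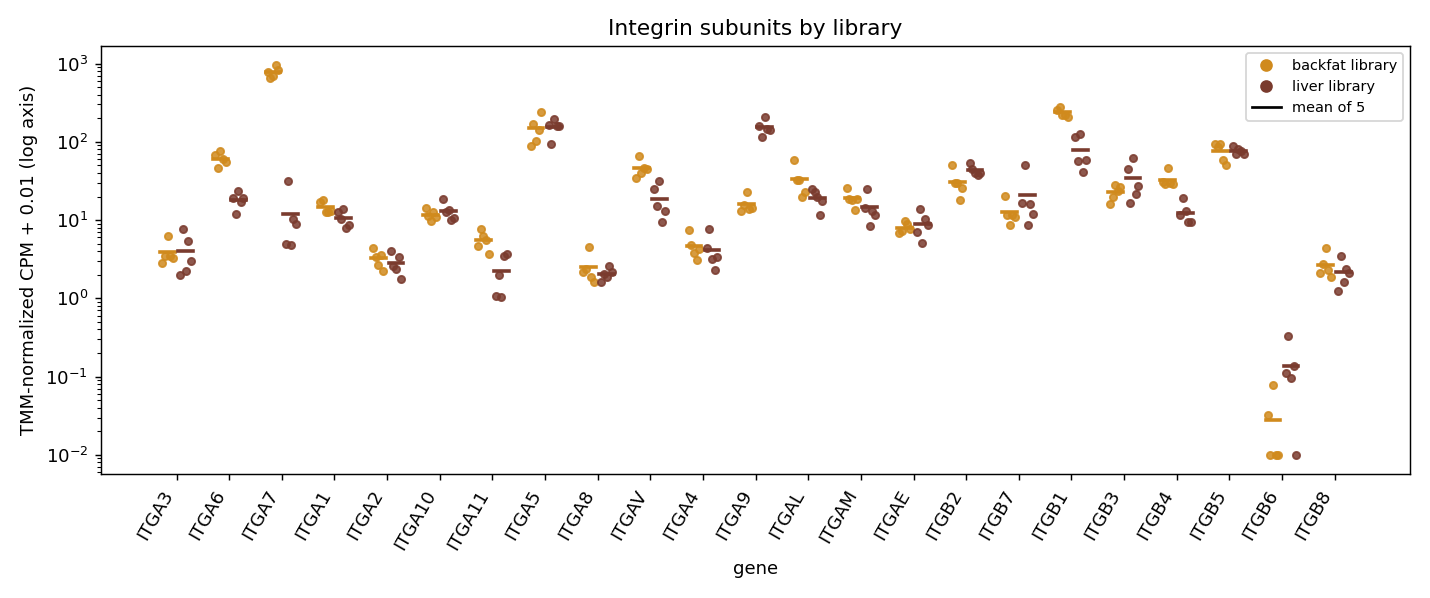
TMM-normalized CPM plus 0.01 (y axis, log scale) of the 23 integrin chains (x axis, by ligand) in each of 5 backfat and 5 liver libraries, with lines at the mean of 5. ITGA7 is the highest integrin point cloud in backfat, ITGA9 has the widest gap in favour of liver, and most other chains overlap.

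ITGA9, which binds tenascin, osteopontin and VCAM1, was the liver DEG. ITGA9 (ENSSSCG00000011245, chromosome 13, 22298497 to 22655717, plus strand) was at 13.1, 15.4, 23.13, 13.7 and 14.3 CPM in backfat and at 158, 116, 208, 147 and 141 CPM in liver. Backfat 69 was the highest backfat and lay far below liver 67, the lowest liver. The log2 fold change was -3.27 (SE 0.22, FDR = 1.379e-07), which is 9.67-fold in favour of liver. Markers of liver sinusoidal endothelium, with 3 of 5 in the table and 1 of them higher in liver, summed to 104 to 247 CPM in backfat and 378 to 686 CPM in liver, and their part in the ITGA9 difference was not tested. ITGA4, the related chain of lymphocytes, was at 7.5, 4.75, 3.73, 3.10 and 4.25 CPM in backfat and 4.34, 7.61, 3.19, 2.31 and 3.39 CPM in liver (FDR = 0.7104).

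Of the 4 collagen receptor chains, ITGA11 alone passed the test, higher in backfat (25.0%, with 28.0% of all genes). ITGA11, found on fibroblasts, was at 4.65, 7.67, 6.17, 5.48 and 3.65 CPM in backfat and 1.07, 1.998, 1.04, 3.48 and 3.69 CPM in liver. Backfat 72 lay just below liver 72, the highest liver, so that the groups overlapped, and the log2 fold change was 1.30 (SE 0.39, FDR = 0.0141). ITGA1, the collagen IV receptor chain, was at 17.2, 18.2, 12.7, 12.7 and 13.04 CPM in backfat and 12.6, 10.4, 13.7, 7.99 and 8.73 CPM in liver (log2 fold change 0.47, FDR = 0.0649, and 0.56 with an FDR of 0.0362 without liver 69). ITGA10, a cartilage collagen receptor chain, was at 14.3, 11.2, 9.81, 12.7 and 10.8 CPM in backfat and 18.7, 12.5, 13.6, 9.92 and 10.5 CPM in liver (FDR = 0.547). ITGA2, the collagen receptor chain of platelets and epithelia, was at 4.34, 3.34, 2.62, 3.62 and 2.20 CPM in backfat and 3.97, 2.57, 2.38, 3.32 and 1.76 CPM in liver (FDR = 0.570).

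Receptors of the RGD motif in fibronectin and vitronectin showed a single change among the alpha chains (33.3% higher in backfat, with 28.0% of all genes). ITGAV, the vitronectin receptor chain, was at 34.2, 66.8, 39.8, 45.8 and 44.3 CPM in backfat and 24.9, 15.1, 31.5, 9.54 and 13.1 CPM in liver (log2 fold change 1.29, SE 0.31, FDR = 0.00352). The lowest backfat, 65, was just above the highest liver, 69. ITGA5, the fibronectin receptor chain, was at 89.3, 168, 103, 142 and 238 CPM in backfat and 163, 93.1, 198, 158 and 157 CPM in liver, and the groups overlapped throughout (log2 fold change -0.05, FDR = 0.886). ITGA8, a chain of smooth muscle and stroma, was at 2.19, 2.33, 4.46, 1.86 and 1.63 CPM in backfat and 1.60, 2.03, 1.85, 2.56 and 2.14 CPM in liver (FDR = 0.454).

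Of the beta chains of these receptors, ITGB1 passed (above), and ITGB3, ITGB5 and ITGB8 did not. ITGB5, a partner of ITGAV, was at 93.9, 86.1, 94.97, 59.1 and 50.1 CPM in backfat and 88.0, 70.5, 80.5, 76.1 and 70.2 CPM in liver (log2 fold change -0.0041, FDR = 0.988). ITGB3, the partner of ITGAV and of the platelet chain ITGA2B, was at 16.2, 19.9, 27.9, 23.6 and 26.3 CPM in backfat and 45.5, 16.7, 62.6, 21.3 and 27.1 CPM in liver. Its log2 fold change was -0.61 (FDR = 0.136), and -0.81 with an FDR of 0.0293 without liver 67. Without backfat 69 and liver 67 together it was -0.87 with an FDR of 0.0377. Platelet markers, with 3 of 5 in the table and 1 of these at 0 counts in backfat, summed to at most 1.99 CPM in any library. Their part in the ITGB3 values was not tested. ITGB8, a partner of ITGAV, was at 2.10, 2.76, 4.37, 2.27 and 1.89 CPM in backfat and 1.22, 3.51, 1.59, 2.37 and 2.09 CPM in liver (FDR = 0.467). ITGB6, the epithelial partner, had at most 12 counts in a library and was not tested.

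Of the 5 leukocyte integrins 1 passed. ITGAL, the alpha chain of LFA-1, was at 59.1, 33.0, 32.5, 19.8 and 22.7 CPM in backfat and 24.7, 22.6, 19.8, 11.4 and 17.5 CPM in liver. Its log2 fold change of 0.80 (SE 0.30, FDR = 0.0373) fell to 0.50 with an FDR of 0.114 without backfat 65, which was the highest library, and the FDR was 0.0554 without backfat 69 and liver 67 together. The call was kept in 11 of 19 alternative fits. Backfat 65 also had the highest leukocyte marker sum, 96.9 CPM, while the other libraries ranged from 31.4 to 92.2 CPM. ITGB2, the beta partner of ITGAL and ITGAM, was at 50.9, 29.9, 29.4, 18.0 and 26.0 CPM in backfat and 53.0, 45.6, 39.5, 37.2 and 40.6 CPM in liver. It was lower in backfat than in the liver of the same boar in each of the 5 pairs, with a log2 fold change of -0.49 (FDR = 0.104), of -0.56 with an FDR of 0.0253 with the boar as a block, and of -0.74 with an FDR of 0.00755 without backfat 65. Leukocyte markers passed in 4 of 8 cases, all higher in liver, and macrophage markers in 3 of the 5 in the table, also higher in liver. Their part in the ITGB2 values was not tested.

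ITGAM, the myeloid alpha chain, was at 25.8, 18.3, 18.2, 13.6 and 18.7 CPM in backfat and 14.3, 24.7, 8.49, 13.1 and 11.7 CPM in liver. Its log2 fold change was 0.39 (FDR = 0.243), and 0.63 with an FDR of 0.0251 without liver 67, the highest liver. Without backfat 69 and liver 67 together it was 0.68 with an FDR of 0.0286. ITGAE, the chain of lymphocytes within epithelia, was at 6.76, 7.17, 9.74, 8.78 and 7.70 CPM in backfat and 6.93, 13.7, 5.14, 10.4 and 8.60 CPM in liver (FDR = 0.627). ITGB7, the partner of ITGAE and of ITGA4 in gut-homing lymphocytes, was at 20.6, 11.5, 8.65, 11.6 and 10.9 CPM in backfat and 16.7, 50.84, 8.58, 16.2 and 11.9 CPM in liver. The difference in ITGB7 (log2 fold change -0.72, FDR = 0.179) was 0.037 without liver 67 and backfat 69.

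The leading chains of the alpha integrins were different in the tissues. Per kb, ITGA7 held 76.9 ± 3.43% of the summed alpha integrin level in backfat and 5.83 ± 5.95% in liver, or 3.24% in liver without liver 67, while ITGA5 held 9.56 ± 3.47% in backfat and 44.4 ± 7.56% in liver. ITGA9 held 0.463 ± 0.161% in backfat and 19.5 ± 1.81% in liver, and 0.796 ± 0.276% and 24.6 ± 2.17% with the longest RefSeq transcripts as lengths. The alpha chains together summed to 251 ± 29.3 CPM per kb in backfat and 55.8 ± 7.20 in liver. Among the beta integrins, ITGB1 held 42.5 ± 4.49% in backfat and 17.7 ± 6.12% in liver, and ITGB5 held 33.2 ± 4.70% and 44.7 ± 6.17%. The beta chains together summed to 73.9 ± 11.3 and 56.8 ± 9.64 CPM per kb.

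**Figure D4:**
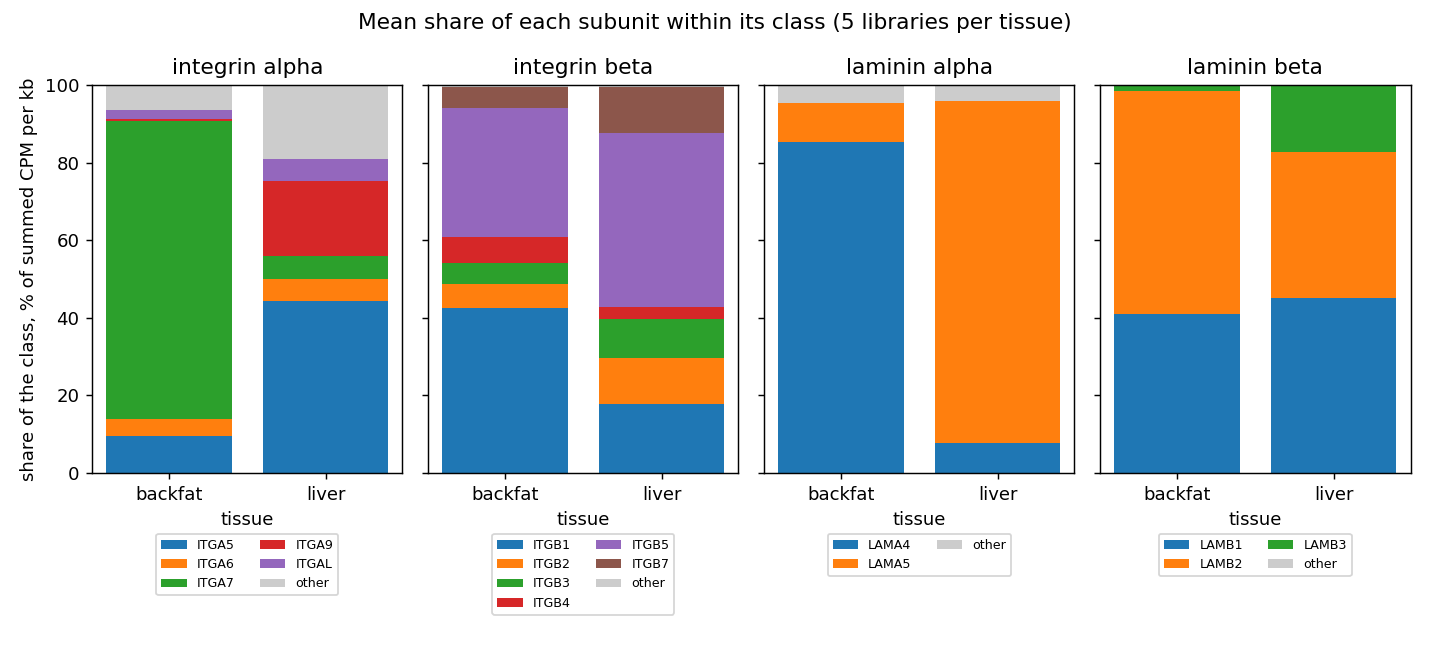
Mean share of each subunit in the summed CPM per kb of its class (y axis, %) in 5 backfat and 5 liver libraries (bars), for chains that held at least 5% in either tissue, the rest in grey. ITGA7 and LAMA4 fill most of their classes in backfat, and ITGA5 with ITGA9 and LAMA5 do so in liver.

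Partners of these chains were read from the same test. The basement membrane list holds collagens, nidogens and proteoglycans that laminin sheets bind. It also holds receptors such as BCAM and other matrix genes such as SPARC. Of 19 tested, 12 were higher in backfat, 6 in liver and 1 (FRAS1) did not pass, with a median log2 fold change of 1.11. These are 63.2% and 31.6% of the list, where 28.0% and 27.0% of all genes were higher in backfat and in liver, so that the liver share was near that of all genes. The largest changes were in COL15A1, a collagen of the outer membrane face (7.28, FDR = 1.593e-08), BCAM, a LAMA5 receptor (5.70, FDR = 2.285e-07), and SPARC, a collagen-binding matrix protein (5.49, FDR = 3.176e-07). Higher in liver were COL18A1, the endostatin precursor (-2.73, FDR = 6.511e-06), COL4A3 and COL4A4, chains of 1 collagen IV trimer (-1.33, FDR = 0.0149, and -1.91, FDR = 0.00497), the proteoglycan AGRN (-0.76, FDR = 0.0274), and FREM1 and FREM2, which act with FRAS1 in epithelial membranes (-3.19, FDR = 8.674e-05, and -1.46, FDR = 1.993e-04). BCAM and its ligand chain LAMA5 therefore moved in opposite directions. FREM1 was low in both tissues, at 0.078 ± 0.028 CPM in backfat and 0.74 ± 0.37 CPM in liver. It was not tested when at least 10 counts were asked in every library. Without backfat 69 and liver 67 together, 4 were higher in liver, as COL4A3 (-0.79, FDR = 0.0538) and AGRN (-0.50, FDR = 0.112) no longer passed. AGRN also fell short without any 1 of backfat 69, backfat 71, liver 67 and liver 72. With library size alone 4 were higher in liver, as COL4A3 (-0.56, FDR = 0.211) and AGRN (0.014, FDR = 0.965) did not pass.

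Adhesion adaptors link integrin tails to actin or carry the signal on, and their list also holds the secreted ITGBL1. Of 28 listed, 27 were in the table and 26 were tested, with TNS4 too low. In backfat 15 were higher, in liver 3, and 8 did not pass, with a median log2 fold change of 0.71. These are 57.7% and 11.5% of those tested, against the same 28.0% and 27.0% of all genes. The largest changes were in ITGBL1, a secreted protein with integrin-like repeats (10.17, FDR = 2.583e-08), TLN2, a talin that activates integrins (3.91, FDR = 2.07e-07), and FERMT1, an epithelial kindlin (2.45, FDR = 7.30e-04). ITGBL1 was at 97.7 ± 32.6 CPM in backfat and only 0.081 ± 0.077 CPM in liver. FERMT1 was low in both tissues, at 1.19 ± 0.57 and 0.22 ± 0.11 CPM. Neither was tested when at least 10 counts were asked in every library. The 3 higher in liver were LIMS2 (-0.50, FDR = 0.0485), which joins ILK to the adhesion, ITGB1BP2, known from striated muscle (-0.93, FDR = 0.0381), and BCAR1, a docking protein of integrin signals (-0.90, FDR = 0.00257). With the boar as a block, LIMS2 (FDR = 0.0765) and ITGB1BP2 (FDR = 0.0506) no longer passed and TNS3, a tensin, did (-0.49, FDR = 0.0446), which left 2 higher in liver and 16 in backfat. ITGB1BP2 also did not pass without backfat 69 and liver 67 together (-0.63, FDR = 0.124), where TNS3 did (-0.74, FDR = 0.0125), and 14 were higher in backfat. TNS3 was named after its values were seen. LIMS2 and ITGB1BP2 also did not pass with library size alone or without the filter on low counts. LIMS2 fell short as well without any 1 of backfat 67, 71 and 72 and liver 65, 69, 71 and 72. For ITGB1BP2 the same held without any 1 of backfat 65, 67, 69 and 71 and liver 65, 67 and 71. The liver count was 0 with library size alone, 1 without the filter on low counts, and 1 without backfat 67 or without backfat 71.

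Counts were made without regard to strand. In the RefSeq annotation 11 of the 34 members overlap another gene, among them LAMB1, LAMB3, LAMC3 and ITGA1 with PELO, and reads of such neighbours cannot be told apart where their exons meet. The exonic length used for levels per kb was 3.03 times the longest RefSeq transcript for ITGAM, 2.81 times for ITGAE and 2.21 times for ITGB2. It was 1.72 times for ITGA3, 1.70 times for ITGA9, 0.498 times for ITGA1 and 0.375 times for ITGA2. The per-kb levels of these genes therefore depend strongly on the annotation. These lengths do not enter the fold changes.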

How the data were processed

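Poly(A) RNA libraries of both tissues of 5 boars were sequenced. According to the methods of the study, reads were trimmed with Trimmomatic and aligned with HISAT2 to Sscrofa11.1. Per the file header, the authors assigned them to exons with featureCounts 2.0.1 and an annotation file of release 99, with no option set for strand or multimapping reads, and the deposited table holds raw read counts per gene with exonic lengths. Its columns name tissue and a number that is taken here as the boar. Which of the replicates in the labels each column is was not given, so that column names set the groups. The authors' methylation summary files were not used.

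Counts were fitted in edgeR 4.0.16 (R 4.3.3) with filterByExpr, TMM and the quasi-likelihood test with tissue as the only term. All 10 libraries entered and replicate libraries differed beyond sampling noise. CPM were TMM-scaled, divided by the exonic length in kb for comparisons between genes. DESeq2 1.42.0, limma 3.58.1 (voom), other scalings, filters, a boar block and fits without each library were alternatives, and the code was tested on simulated data. The pairing of libraries rests on reading the number in the column names as the boar. The deviations of the libraries of a boar from their tissue means correlated at 0.238, 0.107, 0.0490, 0.165 and 0.0984 for boars 65, 67, 69, 71 and 72. Backfat 69 correlated best with the liver of another number, and the other backfat libraries with the liver of their own number. Intervals and floors cover counting error only.

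The pig symbols of a names table matched 15029 identifiers of the count table. Promoter windows and gene coordinates came from RefSeq annotation release 106 on the same build, Sscrofa11.1. The tested members are given with their values in each library, except 1 that is not reported here. Of each partner list, the 3 passing genes with the largest change are named, and those that passed against the majority of the list. Marker lists for Schwann cells, keratinocytes and mesothelium were also summed. Their sums were 15.6 to 68.4, 6.07 to 7.55 and 0.169 to 0.723 CPM in backfat and 35.2 to 89.8, 9.75 to 22.5 and 0.224 to 1.66 CPM in liver. The members and lists were chosen with earlier results of these data known.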

Additional observations from a re-analysis of the deposited data

Results flagged for a closer look

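In 11 of 64 groups of 5 libraries, 1 library lay far from the other 4 (its gap to the nearest was more than 0.71 of the range of the group). Chance would give about 1 in 20 such groups if the groups were independent and their values normal. The groups here share the same libraries, so that this rate is a rough guide. LAMC3 in liver, with 0 in the other 4 libraries, meets the rule from any count in liver 67. Liver 67 held 5 of them: ITGA7 at 31.67 CPM (others 4.735 to 10.27), ITGB7 at 50.84 (8.58 to 16.7), LAMB1 low at 32.29 (59.5 to 70.2), LAMB2 at 74.31 (33.1 to 42.2) and LAMC3 at 0.081 with 0 in the others. Backfat 69 held another 5: ITGA3 at 6.325 CPM (2.82 to 3.43), ITGA8 at 4.458 (1.63 to 2.33), ITGA9 at 23.13 (13.1 to 15.4), ITGB4 at 45.65 (29.0 to 30.3) and LAMB2 low at 264.2 (361 to 393). Backfat 65 held ITGB7 at 20.6 CPM (8.65 to 11.6).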

How the results depend on the processing

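The 7 backfat DEGs and the liver DEG were 7 and 1 in every fit without 1 library, and the backfat DEGs were 6 with the test against the fold threshold and 6 with at least 10 counts in every library, where LAMC3 was not tested. Library size alone moved the median of all genes by 0.71 and gave 22 members higher in backfat in place of 14, 12 backfat DEGs in place of 7, and 0 adhesion adaptors higher in liver in place of 3. Without the filter on low counts 1 adaptor was higher in liver, and without each library in turn 1 to 3 (1 without backfat 67 or backfat 71).

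With the boar as a block (pairing), ITGB2 passed (-0.56, FDR = 0.0253), ITGA3 was 0.049, and no other member's call changed. Of 607 comparisons of a member's fold change with an alternative, 554 kept direction and call. Signs turned only for members that had not passed. With library size alone these were ITGA10 0.54, ITGA3 0.70, ITGA5 0.62, ITGAE 0.59, ITGB2 0.25, ITGB3 0.018, ITGB5 0.72 and ITGB7 0.073. Under that scaling ITGAE (FDR = 0.0367) and ITGB5 (FDR = 0.0230) passed as higher in backfat. Limma-voom gave ITGA3 0.071, no filter gave ITGA5 0.00088 and ITGB5 0.055, and leaving out backfat 69 and liver 67 together (chosen after seeing the data) gave ITGA3 0.038, ITGA8 -0.022 and ITGB7 0.037. Without each library in turn the ranges were -0.26 to 0.028 (ITGA10), -0.32 to 0.24 (ITGA3), -0.068 to 0.47 (ITGA4), -0.28 to 0.089 (ITGA5), -0.015 to 0.42 (ITGA8), -0.31 to 0.0098 (ITGAE) and -0.086 to 0.12 (ITGB5). The causes were not tested. Limits are 5 libraries per tissue, whole tissue and counts too low for ITGB6 and LAMB4.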
